A study of Mus musculus with 5 samples.

Results

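Solute carriers are the membrane proteins that move nutrients, metabolites and ions across the plasma membrane and the membranes of organelles, and their genes carry Slc symbols numbered by family. The set described here holds the solute carrier probe sets detected in common dendritic cell progenitors (CDP) or common myeloid progenitors (CMP) of mouse bone marrow. A probe set was a member when its annotation gave exactly 1 gene symbol starting with Slc and a digit and when its log2 value was 5 or more on at least 2 of the 5 arrays. Slc40a1, Slc11a1, Slc11a2 and Slc25a37 were left out beforehand. The array held 656 probe sets of 347 such genes, 648 probe sets of 343 genes remained as candidates, and 202 probe sets of 135 genes were members. The other 446 candidates failed the level rule, and 427 of them lay below log2 5 on all arrays. The members were thus chosen by their log2 levels on these same 5 arrays, without regard to the direction of any difference, and all counts below concern detected solute carriers only.

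Both populations came from wild-type C57BL/6 mice and were sorted and sorted again from marrow. The CDP arrays (n = 3) held cells without lineage markers that were intermediate for c-kit, negative for Sca-1 and CD16/32, and positive for CD34, Flk2 and CD115. The CMP arrays (n = 2) held lineage-negative cells high for c-kit, negative for Sca-1, CD11c, CD16/32 and CD115, and positive for CD34 and Flk2. No genotype or treatment distinguished them. Whether the arrays represent different animals is not given in the labels. The p-values below reflect only how far these samples lie apart, and that spread may be technical. In bulk samples, fewer cells of a type and less RNA per cell cannot be told apart.

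A proliferating progenitor takes up glucose, amino acids, phosphate, choline and trace metals through carriers of its plasma membrane, while mitochondrial carriers of the Slc25 family exchange substrates between matrix and cytosol. Carriers of the Golgi membrane import nucleotide sugars for glycosylation. Carriers of endosomes and lysosomes export the amino acids, nucleosides and peptides released by digestion and set the pH and ion content of these compartments, and several of them serve the sensing of nucleic acids in dendritic cells.

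The labels were checked against defining genes of both gates. Irf8, Id2, Itgax and Csf1r were higher on every CDP array than on either CMP array, and Kit, Gata2 and Cebpa were higher on both CMP arrays. Both gates select for CD34 and Flk2, and Cd34 was lower on every CDP array (10.20, 11 and 10.92 against 11.22 and 12.86) while Flt3, which encodes Flk2, was lower on both CMP arrays (9.88 and 10.06 against 10.76 to 11.02). Csf1r, which encodes the CD115 of the gates, was at 11.75 and 11.03 on the CMP arrays against 12.94 to 13.16 on the CDP arrays, so its message was detected in cells sorted as CD115-negative. Between 34% and 35.8% of probe sets reached log2 5 on each array. On CDP 1 and CMP 1 the 3′ β-actin control exceeded the 5′ control by 8.05 and 7.35 log2 units, against 1.81 to 4.48 on the other arrays, and those arrays are called low in 5′ signal below. CDP 2 alone held neutrophil transcripts, with 8 of 10 listed markers detected and a summed level of log2 14 against 5.94 to 6.36 elsewhere. The listed markers Cxcr2 and Itgb2l were below log2 5 on all arrays. Of 6 erythroid markers, 3 were detected on CDP 2 and 1 on each other array. Summed mast cell and basophil markers were at log2 11.15 and 10.06 on the CMP arrays and at 7.12 to 7.26 on the CDP arrays. Cpa3, Hdc, Mcpt8 and Gata2 were higher on both CMP arrays, and Ms4a2 and Fcer1a were below log2 5 everywhere. Gata2 is also among the defining genes above. T and NK cell markers summed to log2 9 and 8.95 on the CMP arrays and to 5.28 to 6.42 on the CDP arrays. This difference came from Nkg7 alone (8.94 and 8.9 against 4.29 to 6.06), with Cd3e, Cd3g, Cd3d and Ncr1 below log2 5 everywhere. The part of these markers in the results was not tested.

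Differences are CDP minus CMP on the log2 scale, and the test was limma with Benjamini-Hochberg adjustment over all 16552 tested probe sets at a threshold of 0.05. Solute carriers moved about as often as the rest of the table. Of 202 member probe sets, 3 rose in CDP (1.49%) and 0 fell, against 1.31% and 0.423% of all tested probe sets (1.73% in either direction). Of these 3, Slc44a1 and Slc66a1 passed the level rule only through the CDP arrays on which they were high, so that some difference was fixed by the rule, and their p-values are given as a description. An unadjusted p under 0.05 was reached by 25 members higher in CDP (12.4%, against 11.1% of the table) and 6 lower (2.97%, against 4.89%). In 44 members (21.8%) every CDP array lay above both CMP arrays, against 21.2% of the table, and in 20 (9.9%) every CDP array lay below, against 11%. The 44 include 9 members that passed the level rule only through CDP arrays, and the 20 include 1 that passed it only through CMP arrays. Together these were 31.7% of members and 32.2% of the table, so the shares are near the background. Of the 135 genes, 80 (59.3%) differed upward by any amount, against 57.2% of tested probe sets. The median member gene, taking for each gene the probe set with the highest mean, differed by 0.19, which is 0.08 above the median of 0.12 over all tested probe sets. The gene differences ran from -1.26 to 3.40, with quartiles at -0.29 and 0.71. Quantile normalization between arrays moved the median of all tested probe sets to 0.0026, and group medians below are therefore also given relative to 0.12.

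The 3 genes that rose encode carriers of choline, of lysosomal cationic amino acids and of lysosomal nucleosides. Slc44a1, a choline transporter that supplies phosphatidylcholine synthesis, was at 7.96, 7.53 and 7.76 on CDP 1, CDP 2 and CDP 3 and at 4.76 and 4.63 on CMP 1 and CMP 2. All CDP arrays were above the detection level of log2 5 and both CMP arrays below it. The means were 7.75 ± 0.22 (SD, n = 3) and 4.70 ± 0.09 (SD, n = 2), the difference 3.05 ± 0.31 (SE) and the adjusted p 0.0169. With values below log2 5 set to 5, Slc44a1 was at least 6.73-fold higher in CDP. The other 3 Slc44a1 probe sets stayed at or below 3.10 on all arrays and carry no measure of the gene.

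Slc66a1 encodes PQLC2, which exports lysine, arginine and histidine from the lysosome. It was at 6.49, 7.14 and 7.06 in CDP and at 4.04 and 4.17 in CMP. Again the groups stood on opposite sides of the detection level, with means of 6.90 ± 0.36 (SD, n = 3) and 4.11 ± 0.09 (SD, n = 2). The difference was 2.79 ± 0.35 (SE) with an adjusted p of 0.0293, or at least 3.73-fold. The gene has this 1 probe set, of a type that can match several transcripts of a gene.

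Slc29a3 encodes ENT3, the nucleoside exporter of the lysosome. Its values were 9.76, 10.26 and 10.17 in CDP and 8.10 and 8.10 in CMP. It was detected on all arrays, with CDP at 10.06 ± 0.27 (SD, n = 3), a difference of 1.96 ± 0.32 (SE) and an adjusted p of 0.0498, a 3.90-fold higher level. A second Slc29a3 probe set reached log2 5 on CDP 2 alone (5.67) and was no member. The 3 genes differed in the same direction on both kinds of array. On the pair low in 5′ signal the differences were 3.20 for Slc44a1, 2.45 for Slc66a1 and 1.66 for Slc29a3, and on the other arrays 3.01, 2.93 and 2.11.

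Leaving out any 1 array ended all 3 calls while the sizes stayed close. The Slc44a1 difference then ran from 2.95 to 3.16 with adjusted p from 0.0576 to 0.135, that of Slc66a1 from 2.67 to 2.99 with 0.0576 to 0.188, and that of Slc29a3 from 1.86 to 2.12 with 0.0773 to 0.279. Without CDP 1 the whole table kept 42 higher and 2 lower calls, and without each of the other arrays in turn it kept 0, so the number of arrays limits the precision. Slc29a3 also missed the threshold after median centring (adjusted p 0.0575, difference 1.83) and after quantile normalization (0.057, 1.87) and with a variance trend and robust estimation (0.0507, 1.96), and over all its alternatives the adjusted p ran from 0.0127 to 0.279.

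**Figure D1:**
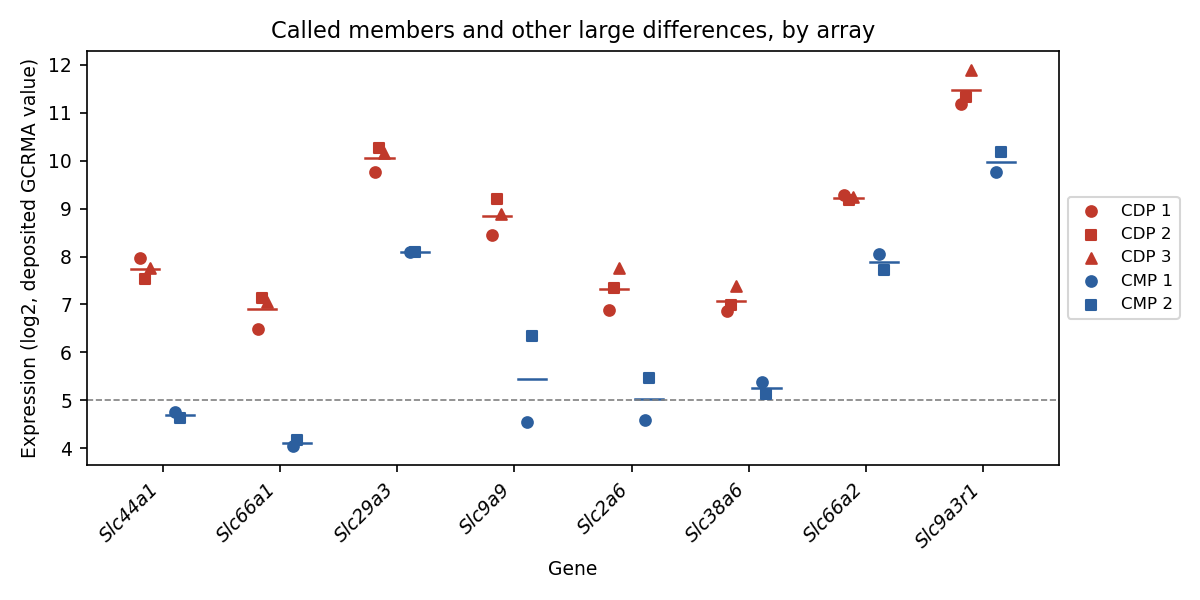
Log2 level (vertical axis) of the solute carrier genes with the largest differences on each array, with CDP and CMP arrays as separate points, group means as short lines and the detection level of log2 5 as a dashed line. For Slc44a1 and Slc66a1 all CDP points lie above log2 5 and both CMP points below it, and for Slc29a3 the CDP points start at 9.76 above CMP points at 8.10.

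The start regions of the called genes are printed to show the sequence next to the starts of the carriers that rose. They come from RefSeq (GRCm38.p6), read 5′ to 3′ on the gene's strand, lie upstream of the outermost annotated start and hold 224, 198 and 183 bases. Capitals mark a GC box, GGGCGG, on either strand.
Slc44a1, chr4:53440163-53440386, plus strand: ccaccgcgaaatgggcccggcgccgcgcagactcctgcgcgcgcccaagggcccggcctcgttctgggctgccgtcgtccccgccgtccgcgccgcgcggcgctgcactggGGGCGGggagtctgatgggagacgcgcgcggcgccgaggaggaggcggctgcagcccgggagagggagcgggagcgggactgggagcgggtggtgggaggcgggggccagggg
Slc66a1, chr4:139310761-139310958, minus strand: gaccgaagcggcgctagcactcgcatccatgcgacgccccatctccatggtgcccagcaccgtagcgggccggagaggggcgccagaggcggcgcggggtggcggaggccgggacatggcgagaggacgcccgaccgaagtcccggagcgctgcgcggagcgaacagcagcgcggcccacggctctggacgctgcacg
Slc29a3, chr10:60752850-60753032, minus strand: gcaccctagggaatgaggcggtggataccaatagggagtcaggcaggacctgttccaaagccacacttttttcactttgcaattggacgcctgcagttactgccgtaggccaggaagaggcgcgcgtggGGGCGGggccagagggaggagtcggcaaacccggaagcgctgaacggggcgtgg
The printed stretches of Slc44a1 and Slc29a3 hold 1 GC box each, and the GC content of the stretches was 79.9%, 74.2% and 61.7% in the order printed. In the 300-base windows around annotated starts, all 3 genes held GGGCGG, as did 89 of 107 member genes with a window (83.2%) and 71.2% of tested genes. The windows of the called genes held none of 4 other motifs on either strand. Those were GAGGAAGT for PU.1, the E-box with the letters CACGTG, the GATA motif with the letters AGATAA, and the motif of interferon regulatory factors, in which the letters GAAA recur after any 2 bases.

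Among carriers that bring nutrients in from outside, the glucose transporters GLUT1 and GLUT3 and the light chain of the leucine transporter LAT1 lay lower on every CDP array, without passing the test. Other uptake carriers lay higher on every CDP array, among them Slc44a1, which was called, and Slc31a1, Slc16a7, Slc22a5 and Slc20a1, which were not. Of 8 sugar and polyol carrier genes, 2 lay above the CMP arrays on every CDP array and 4 below, with a median of 0.00 (-0.12 relative to all) that ran from -0.09 without CDP 1 to 0.07 without CDP 2. Such counts in this and the other classes stand against 21.2% above and 11% below over all tested probe sets, and calls against 1.31% higher and 0.423% lower. Classes this small are described only. In some classes the counts include genes that passed the level rule only through the group in which they were high. These genes are listed with the detection counts below. Slc2a1, the glucose transporter GLUT1, was at 8.56, 8.09 and 8.95 in CDP and at 9.34 and 9.62 in CMP. The CDP arrays were all lower, by a difference of -0.95 ± 0.38 (SE) that did not pass (adjusted p 0.299). Slc2a3, the glucose transporter GLUT3, ran from 8.34 to 8.81 in CDP against 9.25 and 9.03, with a difference of -0.49 ± 0.33. The inositol transporter Slc5a3 (-0.28 ± 0.32) and Slc50a1 (-0.16 ± 0.31), both chosen after their values were seen, made up the rest of the lower genes.

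The opposite order was seen in Slc2a6, a facilitative hexose transporter found on intracellular membranes. It was at 6.88, 7.35 and 7.77 in CDP and at 4.59 and 5.46 in CMP. The groups were apart by 2.30 ± 0.44 (SE), at least 4.28-fold, with an adjusted p of 0.0698 that missed the threshold. Slc37a4, the glucose-6-phosphate carrier of the endoplasmic reticulum, was at 8, 8.68 and 8.48 in CDP and at 6.76 and 7.93 in CMP, a difference of 1.04 ± 0.46 with an adjusted p of 0.346.

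In the amino acid class, 1 of 19 genes rose (Slc66a1) and 0 fell, against 1.31% and 0.423% of all tested probe sets. On every CDP array 6 lay above CMP and 4 below. Of these, Slc66a1 passed the level rule only through CDP arrays and Slc1a4 only through CMP arrays. The class median was -0.04 (-0.16 relative to all) and changed sign with single arrays, from -0.16 without CMP 1 to 0.35 without CMP 2. Slc7a5, the light chain of the leucine transporter LAT1, was at 9.02, 9.30 and 9.71 in CDP and at 9.78 and 10.47 in CMP. All CDP values were lower, but the difference of -0.78 ± 0.39 (SE) did not pass (adjusted p 0.401). Slc3a2, the heavy chain that carries LAT1 to the surface, overlapped between groups at -0.04 ± 0.41.

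Slc38a1, a sodium-coupled glutamine transporter, was at 12.02, 12.19 and 11.70 in CDP against 12.40 and 12.92, a difference of -0.69 ± 0.35 without overlap. Its relative Slc38a2, which is induced by amino acid shortage, overlapped at 0.34 ± 0.33, and so did the glutamine exchanger Slc1a5 at -0.06 ± 0.41. Slc1a4, a neutral amino acid exchanger, was the 1 member detected on both CMP arrays (5.51 and 5.22) and on no CDP array (4.20 to 4.67). Its difference was -0.94 ± 0.33 with an adjusted p of 0.242. The cationic amino acid importer Slc7a1, named after its values were seen, ran from 10.86 to 11.75 in CDP against 12.40 and 11.50, and the groups overlapped. The cystine importer Slc7a11 was not detected, with no value above 2.27.

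Besides Slc66a1, the largest difference in the class was that of Slc38a6, a member of the sodium-coupled neutral amino acid transporter family. It was at 6.87, 6.99 and 7.39 in CDP and at 5.39 and 5.13 in CMP. The gap of 1.83 ± 0.33 (SE), or 3.55-fold, missed the threshold with an adjusted p of 0.0622. Slc66a2, a PQ-loop relative of Slc66a1, was at 9.29, 9.17 and 9.24 against 8.06 and 7.71, a difference of 1.35 ± 0.31 with an adjusted p of 0.108. The amino acid carriers Slc36a1 (0.85 ± 0.30) and Slc36a4 (1.32 ± 0.46), named after their values were seen, were also higher on every CDP array without passing.

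**Figure D2:**
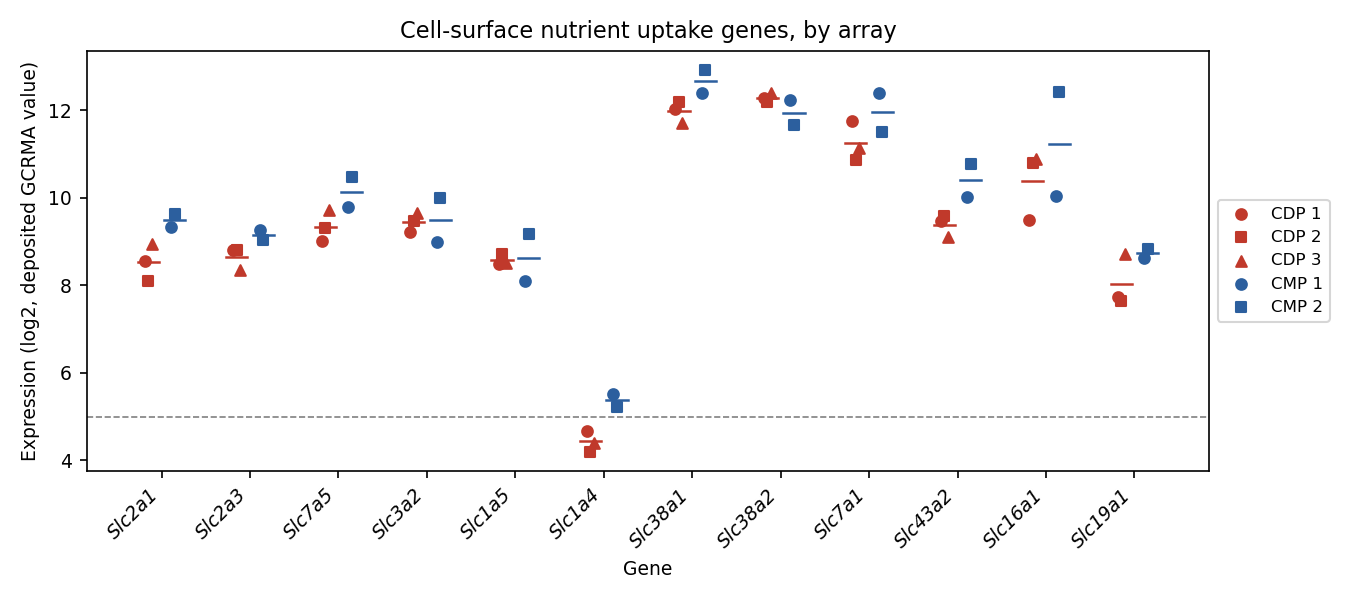
Log2 level (vertical axis) of a selection of plasma membrane carriers of glucose, amino acids, lactate and folate on each array, with CDP and CMP arrays as separate points, group means as short lines and log2 5 as a dashed line. Some were chosen after their values were seen, so the panel does not describe uptake carriers as a whole. Slc16a7 and Slc6a6, both higher on every CDP array, are not shown. Slc2a1, Slc7a5 and Slc38a1 show all CDP points below both CMP points, while Slc3a2 and Slc1a5 overlap, and none of these genes passed the test.

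Monocarboxylate, carboxylate and fatty acid carriers gave 3 of 7 genes above CMP on every CDP array and 0 below, with a median of 0.13 (0.02 relative to all) that moved to between 0.20 without CDP 3 and 0.46 without CMP 2. Of the genes above, Slc16a4 and Slc27a1 passed the level rule only through CDP arrays, so a difference in that direction was fixed by the rule. Slc16a7 was detected on all arrays. Slc16a1, the lactate transporter MCT1, was at 9.49, 10.79 and 10.89 in CDP and at 10.04 and 12.42 in CMP. The CMP arrays differed more from each other than the groups did, and the difference of -0.84 ± 0.80 (SE) did not pass (adjusted p 0.683). Slc16a7, the high-affinity pyruvate and lactate transporter MCT2, was at 7.63 to 8.01 in CDP against 6.88 and 7.03, a difference of 0.86 ± 0.31. Slc16a4 was at 4.84, 6.55 and 6.02 against 2.84 and 4.83, so that neither CMP array reached the detection level. Slc27a1, a fatty acid uptake protein, was at 5.94, 5.25 and 5.18 against 4.96 and 4.22, close to the detection level. Slc16a3, the lactate exporter MCT4, was not detected (at most 2.26). Monocarboxylate carriers of this family travel to the surface with the chaperones Bsg or Emb. Emb overlapped between groups at 0.13 ± 0.46, and Bsg was at 3.25 to 6.32 on the CDP arrays and at 4.60 and 5.65 on the CMP arrays.

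Ion carriers had a median of 0.46 (0.35 relative to all) over 13 genes, with 3 above and 1 below CMP without overlap and none called. The median ran from 0.26 without CDP 1 to 0.67 without CDP 3. Slc9a9, the endosomal sodium-proton exchanger NHE9, had the largest difference of any member gene. It was at 8.45, 9.21 and 8.89 in CDP and at 4.54 and 6.35 in CMP. The CMP arrays lay farther from each other than the CDP arrays did, and the difference of 3.40 ± 0.59 (SE), at least 9.02-fold, missed the threshold at an adjusted p of 0.0556. Across its alternatives the adjusted p ran from 0.00684 to 0.351, and the difference from 2.50 without CMP 1 to 4.31 without CMP 2. The other 3 Slc9a9 probe sets lay below log2 5 on all arrays.

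Slc12a2, the sodium-potassium-chloride importer NKCC1, was at 6.27, 5.42 and 5.63 in CDP and at 7.31 and 6.72 in CMP. It was lower on every CDP array by -1.24 ± 0.40 (SE, adjusted p 0.217), and its second probe set differed by -1.45 ± 0.43. Slc12a7, the potassium-chloride exporter KCC4, showed the reverse order, at 6.16 to 6.68 in CDP against 4.95 and 5.71, a difference of 1.06 ± 0.38. Slc20a1, a sodium-phosphate importer, was at 10.97 to 11.61 in CDP against 10.74 and 10.80, with a difference of 0.42 ± 0.35.

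The metal class, which holds zinc and copper carriers once the iron carriers are set aside, had 5 of 17 genes above and 1 below CMP on every CDP array (21.2% and 11% of all tested probe sets), none called, and a median of 0.20 (0.08 relative to all). Its median ran from 0.11 without CDP 1 to 0.33 without CMP 1. Slc31a1, the copper importer CTR1, was at 10.06, 9.27 and 9.38 in CDP and at 8.58 and 7.83 in CMP. Every CDP value was higher, with a difference of 1.36 ± 0.42 (SE) and an adjusted p of 0.194. Its relative Slc31a2, which acts on endosomal copper, was at 5.90, 7.46 and 7.09 against 4.98 and 5.87, at a difference of 1.39 ± 0.57 (adjusted p 0.307). For Slc31a2 the lowest CDP array and the higher CMP array were only just apart.

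Of 6 genes of the Slc30 family, most of whose proteins move zinc out of the cytosol, 3 lay above CMP on every CDP array and 3 overlapped. Of 9 Slc39 genes, which move it in, 8 overlapped and 1, Slc39a7 of the secretory pathway, lay below (-0.88 ± 0.49 SE). Slc30a4, which loads zinc into vesicles, was at 7.96, 7.92 and 8.12 in CDP against 6.98 and 6.52, a difference of 1.25 ± 0.32 (SE, adjusted p 0.138). Slc30a1, the zinc exporter of the plasma membrane, was at 7.28, 7.30 and 7.36 against 6.61 and 6.46, a difference of 0.78 ± 0.30. Its dimmer probe set gave 5.05 to 5.52 against 4.59 and 4.28, detected on every CDP array and on no CMP array. The importer Slc39a1 overlapped at 0.20 ± 0.55 and Slc39a6 at -0.49 ± 0.39. None of these zinc carriers passed the test, and whether exporters and importers differ from each other was not tested. Of the zinc store proteins, Mt1 (metallothionein) was at 5.47 to 6.11 in CDP and at 8.09 and 7.21 in CMP, a difference of -1.81 ± 0.41 that did not pass (adjusted p 0.104).

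Vitamin, choline and heme carriers had a median of 0.60 (0.48 relative to all) over 6 genes, of which 3 lay above CMP without overlap and 0 below. Slc44a1, among these 3, rose (1.31% of all tested probe sets did) and passed the level rule only through CDP arrays. Slc49a4, a lysosomal membrane carrier, was at 9.74, 9.72 and 9.64 in CDP and at 8.30 and 8.83 in CMP. The CDP arrays lay close together above both CMP arrays, and the difference was 1.14 ± 0.32 (SE, adjusted p 0.173). Slc19a2, a thiamine importer, was at 7.24 to 7.80 against 6.17 and 7.24, and Slc19a1, the reduced folate carrier, overlapped at -0.70 ± 0.43. The endolysosomal heme carrier Slc48a1 overlapped at 0.23 ± 0.39, and Slc44a2, the choline transporter-like relative of Slc44a1, overlapped at 0.38 ± 0.36. The class median moved between 0.44 without CMP 1 and 0.83 without CMP 2.

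Of the 3 nucleoside and nucleobase carriers, Slc29a3 rose (1.31% of all tested probe sets did) and the others overlapped. Slc29a1, the nucleoside transporter ENT1 of the plasma membrane, was at 5.28, 6.10 and 5.50 in CDP and at 4.60 and 7.24 in CMP. The CMP arrays enclosed the CDP arrays, and the difference was -0.29 ± 0.78 (SE). Slc43a3, a purine nucleobase transporter, was at 8.96 to 10.06 against 8.96 and 9.35, a difference of 0.52 ± 0.45.

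Peptide, organic ion and bile acid carriers had a median of 0.35 (0.24 relative to all, from 0.22 without CMP 2 to 0.47 without CDP 2) over 10 genes, 4 of them above CMP without overlap, 0 below and none called. Slc15a4, the lysosomal histidine and peptide transporter needed for endosomal Toll-like receptor responses, was at 9.64, 10.74 and 10.47 in CDP and at 7.93 and 9.75 in CMP. CDP 1 lay just below CMP 2, so the groups overlapped, and the difference was 1.44 ± 0.63 (SE, adjusted p 0.343). CDP 1 lay above CMP 1, and CDP 2 and CDP 3 above CMP 2, so the sign was the same within each kind of array. Its relative Slc15a3 reached log2 5 on CDP 2 alone (5.06), was at 2.82 and 4.41 on the other CDP arrays and at 2.26 and 2.27 on the CMP arrays, and was no member. Slc46a3, a lysosomal carrier, was at 4.90, 6.20 and 6.16 against 4.44 and 4.44, so it was detected on CDP 2 and CDP 3 only.

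Slc18a2, the vesicular monoamine transporter of mast cells and basophils, ran the other way at 5.71, 4.84 and 4.58 in CDP and 7.19 and 5.12 in CMP. The groups overlapped at -1.11 ± 0.69 (SE), and CMP 1, which had the highest Slc18a2, also had the highest summed mast cell and basophil markers (11.15). Cpa3, Hdc and Gata2 were higher on CMP 1 than on CMP 2, while Mcpt8 was lower (7.52 against 8.15). The part of those cells in its level was not tested.

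Among carriers that supply organelles, the mitochondrial family was the largest. Of 30 Slc25 genes, 0 were called, 3 lay above and 2 below CMP without overlap, and the median was 0.04 (-0.08 relative to all), turning to -0.06 without CMP 1 and 0.19 without CMP 2. The adenine nucleotide translocases Slc25a4 (0.01 ± 0.32, -0.12 after median centring) and Slc25a5 (0.43 ± 0.43) and the phosphate carrier Slc25a3 (-0.12 ± 0.34) overlapped between groups. Slc25a3 was at 13.91 to 14.49 in CDP and at 14.43 and 14.15 in CMP. The arrays of both populations thus gave nearly the same level for the carrier that supplies phosphate to ATP synthesis.

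Slc25a46, an outer-membrane protein of mitochondrial dynamics, was lowest in the family relative to CMP. It was at 13, 11.39 and 11.51 in CDP and at 13.38 and 13.08 in CMP. CDP 1 lay close to the CMP arrays and the other CDP arrays well below, giving -1.26 ± 0.56 (SE, adjusted p 0.345). Slc25a45 was at 7.53, 8.67 and 8.40 against 6.42 and 7.21, a difference of 1.38 ± 0.47 (adjusted p 0.236). Slc25a38, the glycine carrier of heme synthesis, ran from 4.44 to 5.95 in CDP and lay at 2.78 and 5.23 in CMP, an overlap.

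The nucleotide sugar class holds the whole Slc35 family by number, whether or not each member carries nucleotide sugars into the Golgi. It had 4 of 19 genes above and 3 below CMP without overlap, and none called. Its median was -0.04 (-0.15 relative to all), with -0.29 without CMP 1 and -0.02 without CDP 3. Slc35a2, the UDP-galactose transporter, was at 11.15, 10.04 and 10.36 in CDP and at 11.24 and 11.81 in CMP. It was lower on every CDP array, by -1.01 ± 0.44 (SE, adjusted p 0.345), with CDP 1 only just under CMP 1. The CMP-sialic acid transporter Slc35a1 (-0.84 ± 0.36) and the UDP-N-acetylglucosamine transporter Slc35a3 (-0.56 ± 0.32) were the other genes of the class below CMP on every CDP array, and were named for this. Slc35f6, at 5.37, 6.54 and 6.80 against 4.67 and 4.77, was detected on every CDP array and on no CMP array. Slc35c2 overlapped at 7.36, 9.16 and 9.27 against 5.94 and 8.12, with both arrays low in 5′ signal the lowest of their group.

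The 3 remaining genes carry Slc symbols without being transporters. Slc9a3r1 encodes NHERF1, a scaffold that binds membrane proteins to the cortical cytoskeleton. It was at 11.18, 11.32 and 11.90 in CDP and at 9.77 and 10.19 in CMP. All CDP arrays were higher, at a difference of 1.49 ± 0.37 (SE, adjusted p 0.129), and the 3 probe sets of the gene gave 1.42, 1.49 and 1.73. Slc4a1ap (-0.35 ± 0.40) and Slc7a6os (-0.17 ± 0.55) overlapped.

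**Figure D3:**
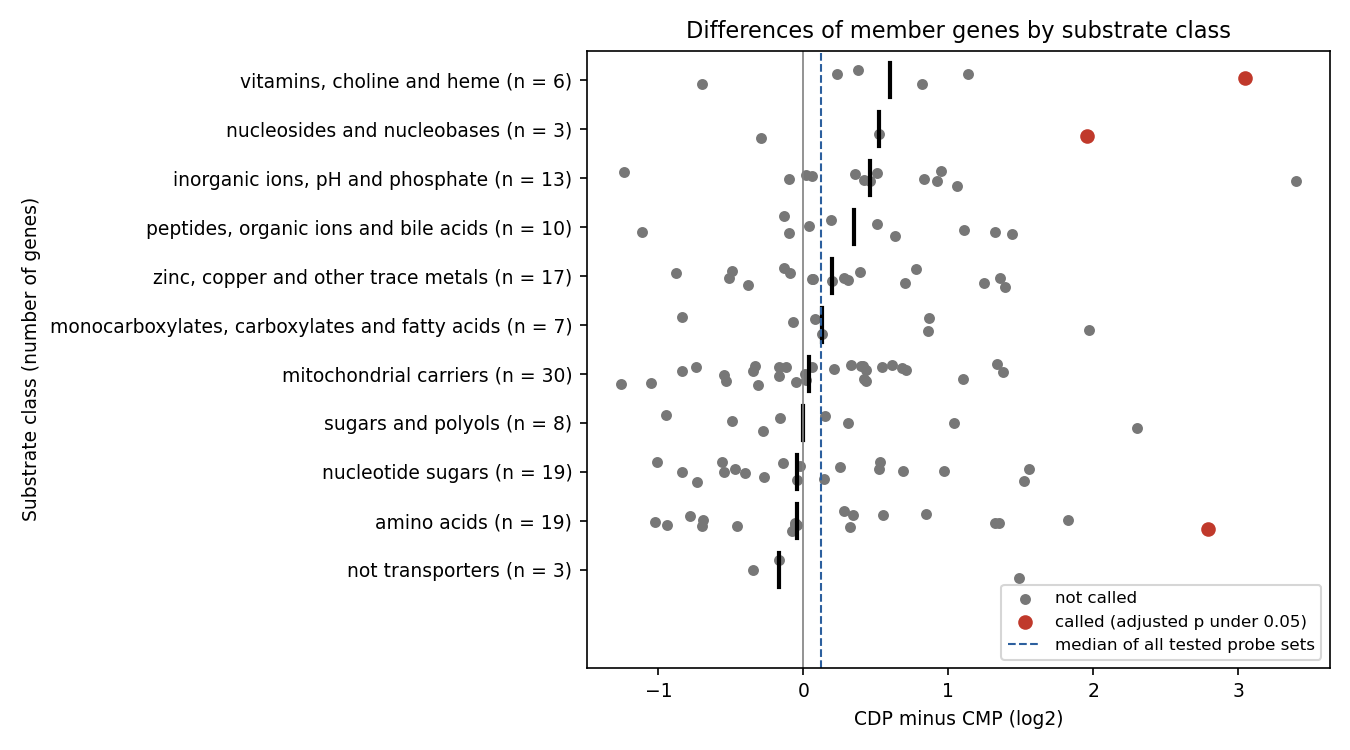
CDP minus CMP difference in log2 units of each member gene by substrate class, with class medians as black bars, called genes in red and the median of all tested probe sets (0.12) as a dashed line. Class medians lie between -0.17 and 0.60, and single genes reach 3.40 (Slc9a9) and 3.05 (Slc44a1).

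Carriers of the endosomal and lysosomal membrane recurred across the classes among the genes higher in CDP. A list of 16 such carriers was drawn up after these values had been seen, so its counts describe these genes and support nothing further. Of its genes, 14 were members and 2 rose (Slc66a1 and Slc29a3), against 1.31% of all tested probe sets. On every CDP array 9 lay above CMP (21.2% of all tested probe sets did) and 0 below. These 9 include Slc66a1 and Slc46a3, which passed the level rule only through CDP arrays. For both, a difference in that direction was fixed by the rule. The median difference was 1.28, or 1.17 relative to all tested probe sets, and 1.19 with values below log2 5 set to 5. It was 1.03 on the pair of arrays low in 5′ signal and 1.13 on the others. The list was not uniform, and its differences ran from -0.13 to 3.40. The sialic acid exporter Slc17a5 (-0.13 ± 0.37), the glutamine exporter Slc38a7 (-0.06 ± 0.47) and the arginine sensor Slc38a9 (0.55 ± 0.46) overlapped between groups, as did Slc15a4 and Slc48a1.

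**Figure D4:**
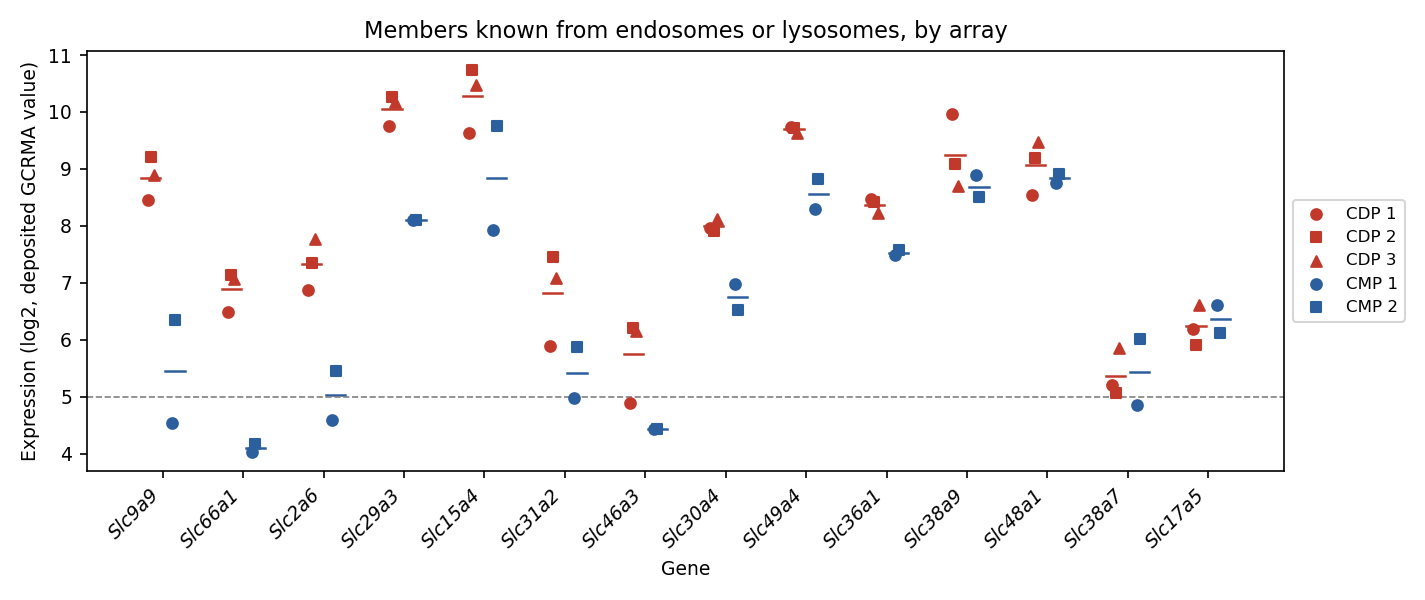
Log2 level (vertical axis) of the 14 detected carriers of endosomes and lysosomes on each array, with CDP and CMP arrays as separate points, group means as short lines and log2 5 as a dashed line. In 9 genes every CDP point lies above both CMP points, and Slc17a5 and Slc38a7 show mixed points. Of these 9, Slc66a1 and Slc46a3 passed the level rule only through CDP arrays.

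The amino acid carriers of the lysosome work beside the mTORC1 machinery that senses amino acids there. Of 27 such genes listed, 20 were tested, 0 were called by limma, 1 reached an unadjusted p under 0.05, and the median was 0.35 (0.23 relative to all). Of the genes of the integrated stress response (ATF4), which controls many amino acid transporters, 15 of 19 were tested, with 0 higher and 1 lower (1.31% and 0.423% of all tested probe sets). That gene was Vldlr, a lipoprotein receptor, at 2.41 to 2.80 in CDP and at 6.34 and 6.13 in CMP (-3.64 ± 0.31 SE, adjusted p 0.0132, at least 2.36-fold lower). Vldlr was tested only through the CMP arrays, on which it was high, and the list's count went to 0 without any 1 array, without a filter and with a filter at log2 7. The asparagine synthetase gene Asns was at 4.78, 5.64 and 6.14 in CDP against 7.65 and 7.09, a difference of -1.85 ± 0.48 that did not pass (adjusted p 0.147). The list's median of 0.14 was 0.03 from that of all tested probe sets.

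Transporters of the superfamily that carry other symbols, with partner proteins, were also counted. Of 34 listed, 25 were tested, 0 rose and 2 fell (1.31% and 0.423% of all tested probe sets), with a median of -0.03. Both calls were lost without any 1 array and without a filter. Spns2, the exporter of sphingosine-1-phosphate, was at 4.25, 4.32 and 5.93 in CDP and at 8.78 and 8.50 in CMP. It fell by 3.81 ± 0.58 (SE, adjusted p 0.0432), at least 10.1-fold, and reached the detection level on CDP 3 alone among the CDP arrays. Slco3a1, an organic anion transporter, was at 7.44, 7.40 and 8.23 against 10.71 and 10.22. It fell by 2.77 ± 0.40 (SE, adjusted p 0.0387), or 6.84-fold. Mpc1, a subunit of the mitochondrial pyruvate carrier, was at 8.65 to 8.94 in CDP against 7.87 and 7.98, a difference of 0.87 ± 0.30 without overlap that did not pass.

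The arrays low in 5′ signal are 1 per population, so the comparison was repeated with that property as a block. It then called 14 member probe sets higher (6.93%) and 2 lower (0.99%), against 6.19% and 2.5% of all tested probe sets (7.92% against 8.69% in either direction). Among the higher ones, Slc44a1, Slc66a1 and Slc16a4 passed the level rule only through CDP arrays. Some difference in that direction was thus fixed by the rule, and their calls are given as a description. The added higher genes were Slc9a9 (3.22 ± 0.36 SE), Slc2a6 (2.18 ± 0.28), Slc38a6 (1.82 ± 0.30), Slc16a4 (1.69 ± 0.31), Slc31a1 (1.49 ± 0.25), Slc9a3r1 (1.42 ± 0.29), Slc66a2 (1.38 ± 0.26), Slc30a4 (1.28 ± 0.28), Slc25a24 (1.25 ± 0.27), Slc25a45 (1.23 ± 0.26) and Slc35c2 (1.23 ± 0.26). The lower ones were Slc12a2 (-1.13 ± 0.26) and a second Slc35a3 probe set (-1.76 ± 0.36) whose values without the block were 7.99, 6.28 and 5.52 against 9.27 and 8.02. The share of members called stayed near that of the table. Compared within each kind of array, 97 of 135 member genes (71.9%) had the same sign on both, against 65.0% of all tested probe sets. The first share counts 1 probe set per gene and the second every tested probe set, so they are not like for like. Both include probe sets whose direction was fixed by the level rule.

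**Figure D5:**
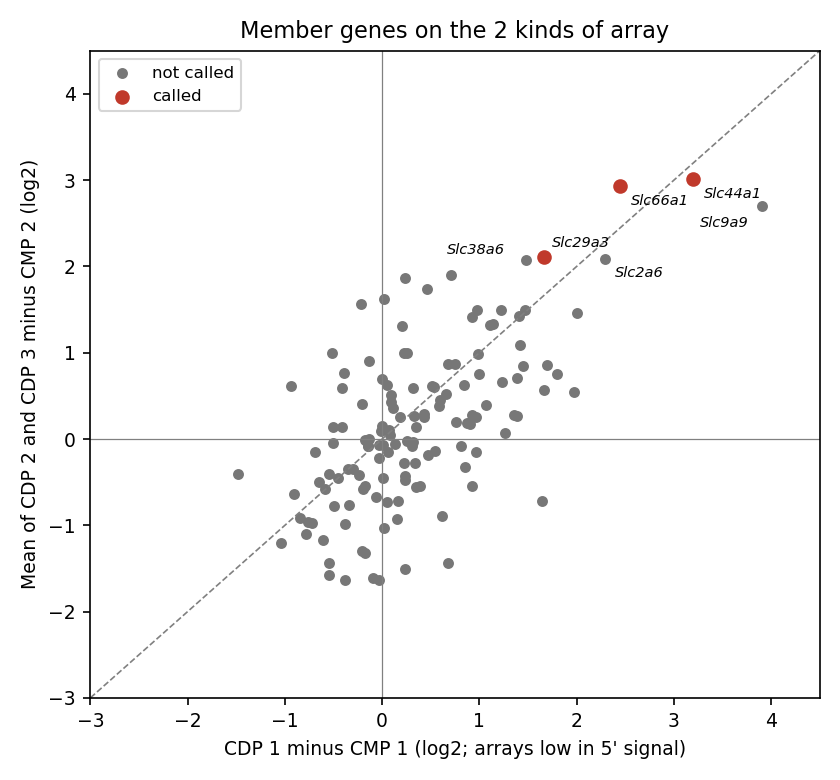
CDP minus CMP difference in log2 units of each member gene on the pair of arrays low in 5′ signal (horizontal axis) against the other 3 arrays (vertical axis). Of the 135 points, 97 lie in the quadrants of equal sign, with Slc44a1 at 3.20 and 3.01.

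Detection itself divided few members. Of the 202 probe sets, 165 reached log2 5 on all 5 arrays. The level rule kept some members only through the arrays of the group in which they were high, so a difference in that direction was fixed by the rule. On the CDP side these were 9 probe sets. Those of Slc66a1, Slc44a1, Slc27a1, the dimmer one of Slc30a1 and 1 of Slc35f6 were detected on every CDP array, and those of Slc16a4, Slc46a3, 1 of Slc25a36 and another of Slc35f6 on 2 CDP arrays, none of them on a CMP array. The probe set of Slc1a4 was the 1 case on the CMP side. At the edge of the rule, the second-highest value was 5.038 for a Slc1a5 probe set, 5.083 for Slc25a44 and 5.091 for Slc35e4 just inside, and 4.985 for a Slc35b4 probe set, 4.947 for Slc25a53 and 4.91 for Slc22a4 just outside. Candidates detected on a single array included both Slc4a1 probe sets, for the erythrocyte anion exchanger, at 9.89 and 8.25 on CDP 2 and at no more than 2.34 elsewhere. The erythroid gene Alas2 was likewise at 8.8 on CDP 2 and at 2.26 elsewhere, while Hba-a1, Klf1 and Epor stayed below log2 5 on all arrays. CDP 2 is also the array with neutrophil markers, and the plasma cell gene Jchain was at 7.32 there and at no more than 3.25 elsewhere. The part of such cells in these levels was not tested.

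Probe sets of a gene did not always agree. Of 46 genes with several member probe sets, 15 had differences of mixed sign. Slc16a10, an aromatic amino acid carrier, gave 0.28 and -1.23. Slc43a2, the leucine carrier LAT4, gave -1.02 ± 0.37 (SE) on its brighter probe set, with all CDP arrays lower, and -0.04 ± 0.36 on the other. Of the member probe sets, 56 carry the array maker's mark for probes that can match several transcripts or related genes, and their differences may mix sequences.

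The E-box CACGTG, a site type of Myc, Max and the lysosomal regulator TFEB, was held by 22 of 107 member genes (20.6%) in the 300-base window, against 12.8% of tested genes with a window. Genes with it had a median difference of 0.10, with 12 of 22 above 0, and genes without it 0.28, with 53 of 85 above 0. Matches are shown for a lysosomal carrier higher on every CDP array and for the lactate transporter whose groups overlapped, with the E-box in capitals.
Slc49a4, chr16:35769560-35769589, minus strand: ttgtttattaggCACGTGatgtaaacttgg
Slc16a1, chr3:104638452-104638481, plus strand: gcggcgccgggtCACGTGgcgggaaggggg
The other motifs were held by 3 member genes (interferon regulatory factors, 2.8% against 3.67% of tested genes), 4 (PU.1, 3.74% against 4.08%) and 9 (GATA, 8.41% against 7.08%). These are matches of letters in a window, not sites.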

How the data were processed

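The comparison used 5 Affymetrix mouse arrays. Per the labels' protocols, RNA of sorted cells was amplified over 2 cycles. The deposited values are log2 levels made by the authors with GCRMA, per the submitters' processing notes, whose version is not given in the sources used here. Whether all arrays were processed together is not stated. Groups came from the sample titles, and that of CDP 3 starts with another prefix. All value columns were mapped.

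Probe sets were named through GEO's platform annotation, with 34945 carrying 1 symbol, 932 several and 9160 none, and 0 symbols changed against RefSeq (GRCm38.p6). Those at log2 5 or more on at least 2 of 5 arrays were tested (16552) in limma 3.58.1 under R 4.3.3 (lmFit, eBayes, 2-sided, 3 residual and 3.14 prior degrees of freedom). The script was tested on simulated data. A gene's probe set with the highest mean stands for it. Substrate classes follow family numbers. Folds marked "at least" set values below log2 5 to 5.

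Members and lists were chosen with earlier results of these data known. Named genes were the called ones, the 3 largest differences and the highest level of each class, genes detected in 1 group only, and a preset list of nutrient carriers. Other genes were named after their values were seen, also where this is not said, as for Slc39a7, Slc43a2 and Slc16a10.

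Alternatives were the 5′ signal block, replicate block, filters, scalings, variance trend, gene means, probe set types and leaving out arrays. Dropping both arrays low in 5′ signal and the GGGCGG motif were added after seeing the data.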

Additional observations from a re-analysis of the deposited data

How the results depend on the processing

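The direction of the 3 called genes held under every alternative that gave them a value (Slc66a1 has none without probe sets that can match several transcripts), but each call was lost when any 1 array, or CDP 1 and CMP 1, were left out and when no filter was set (adjusted p 0.0695 for Slc44a1, 0.128 for Slc66a1, 0.136 for Slc29a3). Over 51 named genes and 14 alternatives, 24 calls were lost, 16 gained and 8 genes changed sign at least once. Leaving out each array in turn, calls over the whole table ran from 0 to 42 higher and 0 to 2 lower, member calls from 0 to 0, and calls on the lists of SLC proteins under other symbols and of ATF4 genes from 0 to 0. Medians then ran from 0.11 to 0.22 for all member genes, -0.16 to 0.35 for amino acids, 0.26 to 0.67 for ions, 0.20 to 0.46 for monocarboxylates, -0.11 to 0.35 for genes that are not transporters, 0.33 to 1.03 for nucleosides, -0.29 to -0.02 for nucleotide sugars, 0.44 to 0.83 for vitamins and 0.11 to 0.33 for metals. The cause of the following shifts was not tested, beyond fewer or other probe sets and arrays entering by construction. With the 5′ signal block there were 14 higher and 2 lower members and 1024 and 414 probe sets in all, 3 ATF4 genes and 1 zinc store gene, with medians of 0.10 for amino acids and 0.33 for metals. A filter at log2 7 gave 45 lower probe sets, 0 ATF4 genes, and medians of 0.12 for amino acids, 0.83 for ions, 1.24 for nucleosides, 0.57 for peptides and 0.25 for all member genes. No filter gave 0 members, 29 higher and 26 lower probe sets, 0 SLC proteins under other symbols and 0 ATF4 genes. Means over a gene's probe sets gave 0.38 for ions. Median centring gave -0.17 for amino acids, 0.34 for ions, -0.13 for sugars, 0.07 for metals and 0.07 for all member genes, and quantile normalization -0.11, 0.37, -0.20, 0.06 and 0.06. Dropping CDP 1 and CMP 1 together, chosen after seeing the data, left 0 members, 0 higher and 0 lower probe sets and 0 genes on both lists, with medians of 0.27 for ions, -0.28 for nucleotide sugars, -0.10 for sugars, 0.40 for vitamins and 0.14 for all member genes. Without probe sets that can match several transcripts the medians were 0.28 for amino acids, 0.47 for monocarboxylates, 0.78 for genes that are not transporters, 1.24 for nucleosides and 0.15 for sugars, with 1 SLC protein under another symbol and 0 ATF4 genes. The groups share replicate numbers 1 and 2, with no label saying that a number marks an animal or day. Deviations of same-numbered arrays correlated at 0.606 and 0.579. The deviations of 2 CMP arrays mirror each other (CDP 1 with CMP 2 gave -0.606), so these values are not separate signs of pairing. CDP 3, which has no CMP array of its number, correlated with CMP 2 at 0.326. CDP 1 and CMP 1 are also the arrays low in 5′ signal, so for them the number and that property cannot be told apart. A replicate block gave 6 higher members, 432 higher and 176 lower probe sets, 1 zinc store gene and a median of 0.67 for ions. Levels near log2 5 have little room to fall, and the folds given as "at least" are bounds.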
